A study of Mus musculus with 2 samples.

Results

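Interferon-stimulated genes are the genes that a cell turns on when an interferon reaches its receptor, and 48 of them were followed here in RNA from mouse blood neutrophils, out of 55536 annotated genes of which 22028 are protein coding. The 48 were a fixed list of symbols joined to gene identifiers through the deposited tables, and each symbol matched 1 gene. They fell into 9 groups by what their products do. The series holds 2 libraries of total RNA from neutrophils of peripheral blood of C57BL/6J mice that were adult and 5 to 6 weeks old. The labels number the libraries as biological replicates 1 and 2. No transgene, infection or treatment is given in the labels, and there is no second condition. ScriptSeq v2 was the library kit, with an input of 100 ng RNA and fragments sized 200 to 1000. Both libraries also carry one donor identifier, so whether they come from separate animals is not known, and the spread between them may be technical. The sex was not collected.

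The depth on annotated genes was 22646991 expected counts for replicate 1 and 21471673 for replicate 2, and the 48 genes together took 0.436% and 0.426% of them. A count of 0 allows up to 3 counts, or 0.132 and 0.140 CPM (counts scaled to the library total). TPM, a transcript level, divides counts by transcript length and scales each library to a fixed total. Most of that total went to other RNA classes: nuclear protein-coding genes held 8.81% of it in replicate 1 and 8.35% in replicate 2. Scaled to nuclear protein-coding genes alone, values would be 11.3 and 12.0 times as high.

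All 10 neutrophil markers were detected, with summed TPM of 2499 and 2525, although Ly6g was low at 1.91 and 2.29. B-cell markers were detected in full as well, 10 of 10, with sums of 705 and 630. Monocyte and macrophage markers were detected for 6 of 9 genes with sums of 33.1 and 30.5, and T-cell markers for 8 of 9 with sums of 33.4 and 32.4. The red-cell list, mostly globins, summed to 4328 and 4263. Platelet markers were detected for 5 of 6 genes with sums of 24.2 and 24.6, and natural killer markers for 2 of 7 with 7.69 and 7.76. Eosinophil, basophil and mast cell markers were detected for 1 of 7 with sums of 3.64 and 3.77. Dendritic-cell markers, a list that includes Bst2, were detected for 1 of 7 with sums of 2.81 and 3.66. In that list Siglech, which marks plasmacytoid dendritic cells, was at 0.03 and 0.04. No marker list had a gene at 0 counts in both libraries. B cells also carry interferon-stimulated genes, and the part of other cells in the levels given here was not tested. In bulk RNA, fewer cells of a type and less RNA per cell cannot be told apart.

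Type I interferons signal through the receptor chains Ifnar1 and Ifnar2 and the kinases Jak1 and Tyk2 to a complex of transcription factors that includes Irf9. That complex binds the interferon-stimulated response element, or ISRE, near the start of target genes, whereas interferon gamma acts through a palindromic site. The products block virus entry, bind or cut foreign RNA, starve viruses of nucleotides or sense nucleic acids, and a low level of many of them is kept in resting blood cells.

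The ISRE core was searched as the letters GAAANNGAA, and the palindrome as TTCNNNGAA, on both strands of RefSeq promoter windows (build GRCm38.p6) that run from 250 bases before to 50 bases after each transcript start. A window was found for 37 of the 48 genes. No entry matched Parp14, Ifi27l2a, Ifi204, Mx2, Zbp1, Parp9, Usp18, Rtp4, Mx1, Dhx58 or Oas2. The ISRE-like letters stood in the windows of 23 of the 37 genes, 62.2%, against 9.76% of all 27025 genes with a window and 9.28% of the detected protein-coding genes. With 1 further A required after the core they stood in 21 of the 37 against 3.99% of all genes, and without the last A in 25 against 23.4%.

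The stretches below show these letters in at most 3 genes of a role group, the most abundant of those that hold them, read 5′ to 3′ on the strand of the match, with the match in capitals.
Isg15 (chr4:156200866-156200906, minus strand): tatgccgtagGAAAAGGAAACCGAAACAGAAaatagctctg
Ifit3 (chr19:34583398-34583426, minus strand): gaggaaagtaGAAACTGAAacagacttaa
Ifit3b (chr19:34607794-34607822, minus strand): gaggaaagtaGAAACTGAAacagacttaa
Ifit1 (chr19:34640770-34640804, minus strand): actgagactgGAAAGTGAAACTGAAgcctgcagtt
Oas3 (chr5:120777710-120777744, minus strand): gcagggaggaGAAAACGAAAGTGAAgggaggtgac
Oas1a (chr5:120907524-120907552, minus strand): ttctcggGAAATGGAAACTGAAaatctac
Oas1g (chr5:120887610-120887638, minus strand): ttctcggGAAATGGAAACTGAAaatctac
Ifi203 (chr1:173942509-173942537, minus strand): aagagctgggGAAATCGAAagctatgaac
Ddx58 (chr4:40239804-40239832, plus strand): ctggccatagGAAATCGAAactgcctcag
Ifih1 (chr2:62646206-62646233, minus strand): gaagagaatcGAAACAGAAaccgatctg
Gbp2 (chr3:142620595-142620623, minus strand): ttaagacagtGAAAGTGAAactaaaagag
Irgm1 (chr11:48871426-48871460, minus strand): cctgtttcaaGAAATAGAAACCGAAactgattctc
Gbp3 (chr3:142559990-142560024, minus strand): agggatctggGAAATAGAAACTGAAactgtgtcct
Ifitm2 (chr7:140955989-140956017, minus strand): ccaccaacagGAAAAGGAAattgctagag
Ifitm3 (chr7:141010707-141010735, minus strand): aaacttctgaGAAACCGAAactgccgcag
Rsad2 (chr12:26456553-26456581, plus strand): tctgttttctGAAAATGAAagttggacca
Eif2ak2 (chr17:78882533-78882561, minus strand): ccgccggGAAAACGAAACAGAAgagaacc
Trim30a (chr7:104465210-104465238, plus strand): caggaactgaGAAAAAGAAactaaagaac

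The stretch of Adar is shown with its transcripts. Bst2 and Ifi44, which had the lowest levels of the other effectors, also held the letters and are not shown.

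Isg15 held the longest run, 3 overlapping cores over 21 bases, at positions -78 to -58 from its start. In 9 of the 23 genes at least 2 cores overlapped in this way, and 7 genes held more than 1 separate stretch. Among these 7 is Trim30a, whose 2 stretches belong to 2 different starts. The like shares over all genes that hold the letters were not counted, so these counts have no background to be read against. Of the 32 separate stretches, 24 lay wholly before the transcript start, 75% against 83.1% of the 2825 stretches in all genes with a window. Wholly within the 100 bases before the start lay 13, 40.6% against 28.2%. The other 8 reached past the start, 25% against 16.9%, as in Ifitm3, whose 2 stretches began at 3 and 20. Near copies such as Ifit3 and Ifit3b share stretches, so these are not independent.

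**Figure D1:**
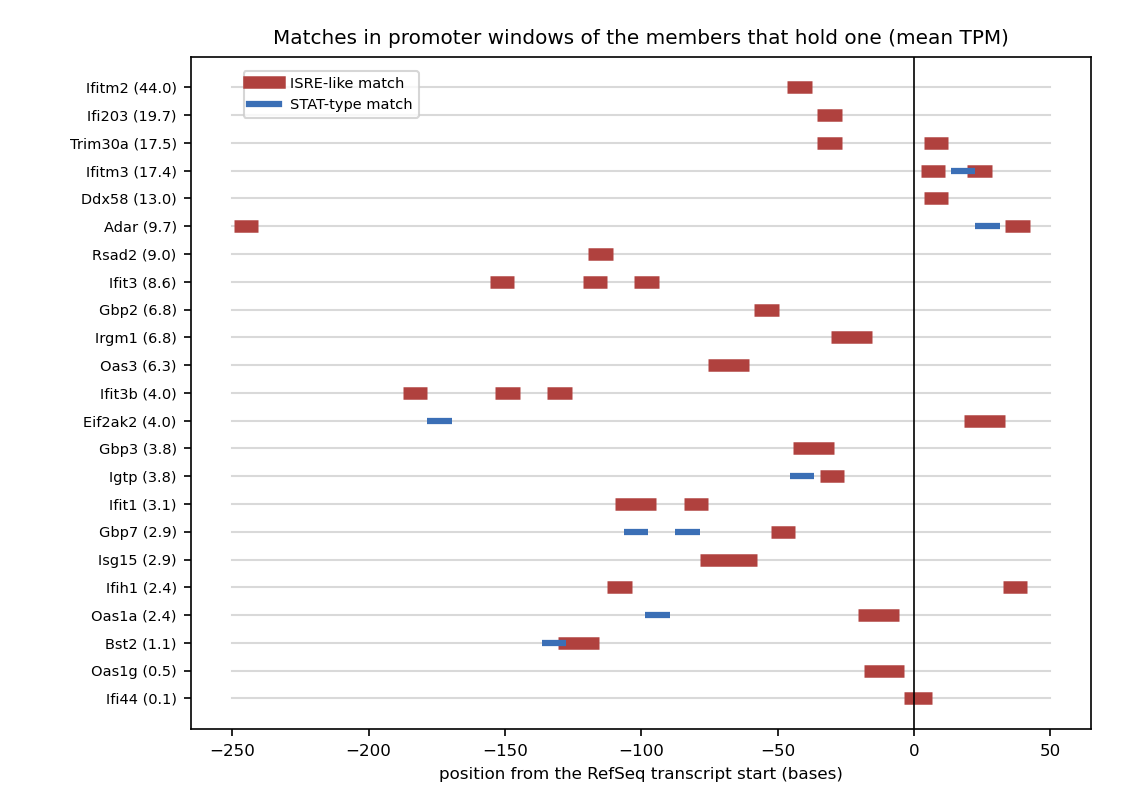
Position of ISRE-like (wide, red) and STAT-type (narrow, blue) letters in the promoter windows of the 23 genes that hold the ISRE-like letters, in bases from the RefSeq transcript start, with mean TPM in brackets. Genes are ordered by mean TPM, and the grey lines run from 250 bases before to 50 bases after the start; the windows of Trim30a belong to 2 different starts drawn on 1 line.

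The upstream part of 3 promoters is given whole, because Isg15 holds the densest ISRE-like run and Ifit3 and Ifit3b are near copies of each other. Each reads 5′ to 3′ along the gene and ends at the base before the start. Capitals mark the ISRE-like letters, which in Ifit3 and Ifit3b stand as their reverse complement.
Isg15 (chr4:156200819-156201068, minus strand): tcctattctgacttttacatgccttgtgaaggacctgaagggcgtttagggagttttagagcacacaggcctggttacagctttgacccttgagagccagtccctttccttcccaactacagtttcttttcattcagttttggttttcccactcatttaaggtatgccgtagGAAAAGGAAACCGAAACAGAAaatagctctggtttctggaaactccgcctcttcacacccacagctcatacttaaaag
Ifit3 (chr19:34583279-34583528, plus strand): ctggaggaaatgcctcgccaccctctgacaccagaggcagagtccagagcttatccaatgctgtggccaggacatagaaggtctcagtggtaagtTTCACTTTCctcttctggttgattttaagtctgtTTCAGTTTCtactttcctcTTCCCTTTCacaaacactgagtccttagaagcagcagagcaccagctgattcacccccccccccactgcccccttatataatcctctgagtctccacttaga
Ifit3b (chr19:34607707-34607956, plus strand): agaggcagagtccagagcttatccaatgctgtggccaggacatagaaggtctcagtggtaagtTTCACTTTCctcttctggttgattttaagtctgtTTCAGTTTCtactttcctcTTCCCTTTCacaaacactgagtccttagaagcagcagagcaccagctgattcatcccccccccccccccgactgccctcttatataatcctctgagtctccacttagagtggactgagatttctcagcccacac

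All 3 ISRE-like stretches of Ifit3, each with its flanks, were found letter for letter in Ifit3b, and the single stretch of Oas1a in Oas1g. The STAT-type letters stood in 12 of the 37 genes against 9.55% of all genes, and 7 genes held both kinds. In Bst2 and Ifitm3 the kinds overlapped. Samhd1, the gene with the highest TPM, held no ISRE-like letters in its window but did hold the STAT-type letters, shown here in capitals.
Samhd1 (chr2:157135313-157135341, minus strand): acaccaccctTTCGGAGAAacacaagggc

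Levels overlapped between genes with and without the letters. The 23 genes with ISRE-like letters had a median TPM of 4.36 in replicate 1 and 4.30 in replicate 2, and ranged from 0.03 to 44.2 in replicate 1. The 14 genes with a window but without the letters had medians of 5.57 and 4.71 and ranged from 2.39 to 171. A match in this window is a description of the sequence only.

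Across the list, 44 of the 48 genes were detected, which here means a TPM of 1 or more in each library. The same holds for 34.9% of protein-coding genes. The median TPM was 4.87 in replicate 1 and 4.56 in replicate 2, beside 0.12 and 0.11 for all protein-coding genes. Over the 44 detected members it was 6.28 and 5.99, beside 4.43 and 4.16 for detected protein-coding genes. On the log2(TPM + 1) scale the medians were 2.55 and 2.47, against 0.16 and 0.15 for all protein-coding genes. A TPM of 5 or more in each library was reached by 23 members against 14.6% of protein-coding genes, and 6 reached 20, against 3.17%. Between a TPM of 1 and 5 in both libraries lay 21. In order of mean TPM, 18 of the 47 neighbouring pairs had no overlap between their libraries, while the other 29 overlapped. Of the 48 genes, 28 lie in 10 clusters with gaps of at most 250000 bases. At least 1 stretch of 100 bases is shared with another annotated gene by 20, and 8 share 10% or more of their stretches. Where stretches are shared, the split of reads between the genes is uncertain. The like shares over all annotated genes were not counted, so these counts have no background.

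**Figure D2:**
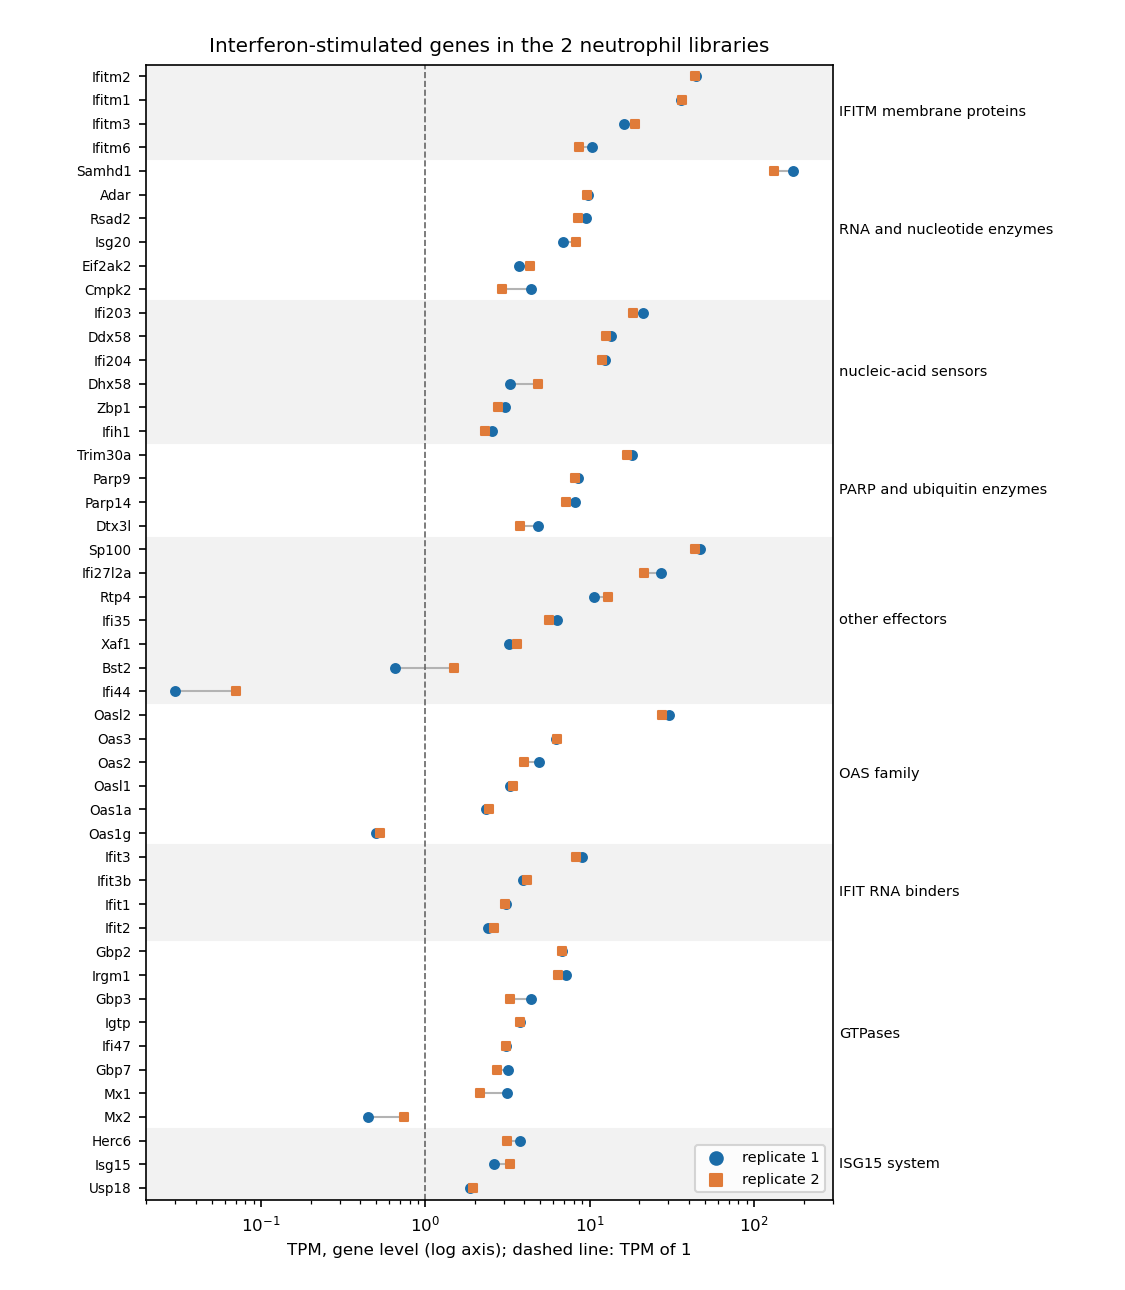
Gene-level TPM (log axis) of the 48 interferon-stimulated genes in replicate 1 (circles) and replicate 2 (squares), grouped by role, with groups ordered by median. The IFITM genes lie highest as a group, Samhd1 is the single highest gene, and Ifi44, Mx2 and Oas1g lie left of the dashed line at a TPM of 1 in both libraries.

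The IFITM proteins, small membrane proteins that hinder fusion of virus and cell, were the highest group, with a median TPM of 25.9 in replicate 1 and 27.5 in replicate 2. Their 4 genes lie together at chr7:140954837-141017924 (GRCm38, GENCODE M21). Ifitm2 was at 44.2 and 43.8. Ifitm1 was at 35.7 and 36.3, and Ifitm3, the member best known for blocking influenza virus, at 16.1 and 18.8. Ifitm6 was the lowest of the group at 10.3 and 8.58. The order Ifitm2, Ifitm1, Ifitm3, Ifitm6 was the same in both libraries with no overlap. Of the 100-base stretches of the Ifitm2 transcript, 34.9% also occur in other annotated genes, 30.4% in Gm45717, which shares its strand and exons, so its value is uncertain to that extent.

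Among enzymes that act on RNA and nucleotides, Samhd1 stood far above the rest. Samhd1, which cuts the nucleotides needed for reverse transcription, was at 171 and 132 and took 22.3% and 20.97% of the expected counts of all 48 genes. Adar, which edits double-stranded RNA, was at 9.77 and 9.58. Rsad2, or viperin, which makes a chain-terminating nucleotide, was at 9.48 and 8.44, and its neighbour Cmpk2, a mitochondrial nucleotide kinase, at 4.41 and 2.92. Isg20, an RNA exonuclease, was at 6.84 and 8.25. Eif2ak2, or PKR, the kinase that stops translation on sensing double-stranded RNA, was at 3.70 and 4.30.

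The nucleic-acid sensors were all detected, 6 of 6. Ifi203 and Ifi204, of the p200 family of DNA-binding proteins, were at 21.1 and 18.3 and at 12.4 and 11.9. Among the RIG-I-like receptors, Ddx58 (RIG-I), which senses RNA with a triphosphate end, led at 13.5 and 12.5. Dhx58 (LGP2), which tunes the other receptors, was at 3.26 and 4.82, and Ifih1 (MDA5), the sensor of long double-stranded RNA, at 2.55 and 2.31. The order of the last pair was the same in both libraries, with no overlap. Zbp1, a sensor of Z-form nucleic acid that can start necroptosis, was at 3.07 and 2.77. Ifi204 shares 10.7% of its 100-base stretches with other genes, chiefly Ifi211.

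Enzymes of the OAS family make the signal molecule 2-5A on sensing double-stranded RNA, although not every member is active in this way. Oasl2 was its highest member at 30.5 and 27.4, and Oas3, the member that prefers long RNA, followed at 6.24 and 6.30. Oas2, at 4.91 and 3.97, and Oasl1, at 3.25 and 3.40, came next, and Oas1a was at 2.35 and 2.45. Oas1g was under a TPM of 1, at 0.50 and 0.53. Oas1a and Oas1g are near copies at chr5:120730333-120907521, beside Oas2 and Oas3, and 40.9% of the 100-base stretches of Oas1a also occur in Oas1g.

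The IFIT proteins bind foreign RNA ends, and their 4 genes at chr19:34550694-34650009 were all detected within a narrow span. Ifit3 was the highest at 8.96 and 8.28, and its near copy Ifit3b was at 3.95 and 4.13. Ifit1, which binds RNA lacking a host-type cap, was at 3.09 and 3.07, and Ifit2 at 2.39 and 2.62. Of the stretches of Ifit3, 31.7% also occur in Ifit3b, so reads there could be split between them.

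The ISG15 system, which tags proteins with a ubiquitin-like protein, was the lowest group by median TPM, 2.60 and 3.12. Isg15, the tag itself, was at 2.60 and 3.27, on 150 and 192 expected counts. Usp18, which removes the tag and restrains the interferon receptor, was at 1.87 and 1.96. Herc6, the ligase that attaches it in mouse, was at 3.76 and 3.12. No member of this group reached 5.

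The GTPases, which attack vacuoles or virus capsids, were detected for 7 of 8 genes, from 2.14 to 7.12. Irgm1, a regulator of the vacuole-attacking GTPases, was at 7.12 and 6.43 and Gbp2 at 6.82 and 6.82, so their ranges overlapped. Igtp, Ifi47, Gbp3 and Gbp7 lay between 2.72 and 4.36. Mx1 was at 3.15 and 2.14, of which protein-coding transcripts held 1.06 and 1.12, and Mx2 was under 1 at 0.45 and 0.74. The annotation types both the Mx2 gene and its leading transcript as a polymorphic pseudogene.

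The PARP and ubiquitin enzymes were detected in full. Trim30a, which dampens inflammatory signalling, was at 18.2 and 16.9. Parp9 and Dtx3l, partners that add ADP-ribose and ubiquitin, and Parp14 lie together at chr16:35832874-35972605. Parp9 was at 8.53 and 8.18 and Parp14 at 8.13 and 7.16, while Dtx3l was lower in both libraries at 4.82 and 3.74. Parp9 and Dtx3l overlap on opposite strands over 9.40% and 8.00% of their exon bases. The strand setting of the counting is not given, so whether reads there were told apart is not known.

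Of the other effectors, Sp100, a component of nuclear bodies that restrains viral DNA, was at 47.0 and 43.9. Ifi27l2a, a small hydrophobic membrane protein, was at 27.1 and 21.5, and Rtp4, a chaperone of receptor traffic, at 10.6 and 12.9. Ifi35, a binding partner of other interferon-induced proteins, was at 6.31 and 5.68, and Xaf1, which opposes inhibitors of apoptosis, at 3.23 and 3.62. The last pair of genes was hardly seen. Bst2, or tetherin, which holds budding virus to the cell, was at 0.65 and 1.5, and Ifi44 at 0.03 and 0.07, on 1 and 21 expected counts.

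Transcript-level values changed this order. IsoPct, the deposited percent of a gene's TPM taken by each transcript, was summed over the transcripts annotated as protein coding. Of the 44 detected members, 41 had a protein-coding transcript in the lead, against 83.9% of all detected protein-coding genes. The median share of protein-coding transcripts was 92.1% in replicate 1 and 91.1% in replicate 2 for detected members, against 74.65% and 75.12% for detected protein-coding genes. The lists differ in how many genes have a single transcript; among genes with several, the medians were 84.5% and 81.6% for 36 members against 72.2% and 72.5%. In 23 of the 44 members the share was over 90% in both libraries, against 27.8% of detected protein-coding genes. Of the 44, 8 have 1 annotated transcript, so their share is fixed by the annotation. This last contrast was not repeated without such genes.

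By the mean of the libraries, the 3 members led by another class were Samhd1, Oasl2 and Mx1. For Samhd1, the retained-intron transcript Samhd1-210, 681 nt long, took 51.4% and 42.5% of the TPM, and retained-intron transcripts as a class took 67.3% and 61.0%. Its protein-coding transcripts came to a TPM of 33.1 and 31.6, which is 19.3% and 24.0% of the gene. On that scale Samhd1 ranked 4 of 48, behind Ifitm2, Ifitm1 and Sp100. For Oasl2, the transcript Oasl2-205, annotated as a target of nonsense-mediated decay, took 47.5% and 43.9%, and protein-coding transcripts came to 5.17 and 6.19, so that the gene moved from rank 5 to 22 and below Oas3 in replicate 1, at 5.78, though not in replicate 2, at 5.69. For Mx1, the 352-nt retained-intron transcript Mx1-208 took 55.9% and 27.8%. Its lead came from replicate 1 alone: in replicate 2 the protein-coding Mx1-202 led with 29.8%, and 42 members then had a protein-coding transcript in the lead. On the older M4 gene models Mx1 was lower, at 1.48 and 1.43, as was Herc6, at 1.60 and 1.51; these were the only 2 members whose mean TPM moved by over 1.5 times there.

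**Figure D3:**
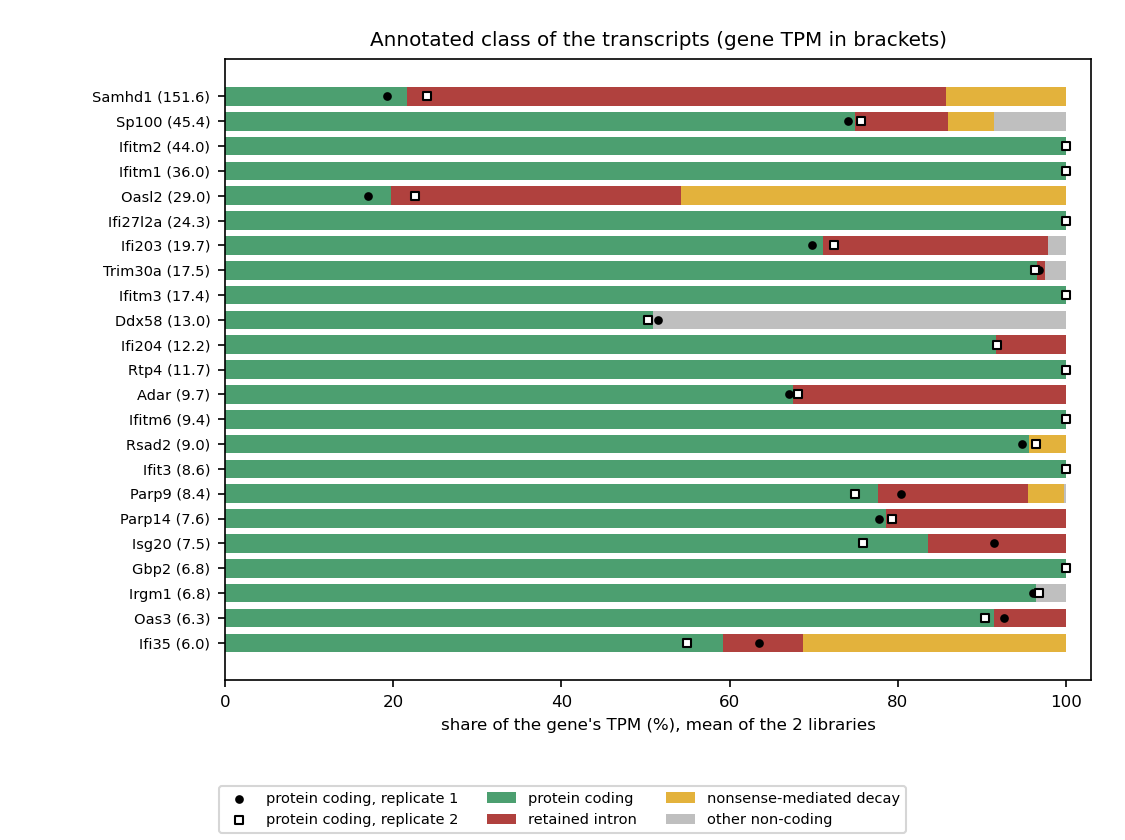
Share of each gene's TPM (percent, mean of the 2 libraries) by annotated transcript class for the 23 members at a TPM of 5 or more in each library, with the protein-coding share of each library as points and the mean gene TPM in brackets. Protein-coding transcripts hold the smaller part of the bar only in Samhd1 and Oasl2 among these 23 genes, while the IFITM genes are protein coding throughout. In Ifitm2 and Ifitm3, with 1 annotated transcript each, that share is fixed by the annotation.

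For Ddx58 the rest was neither intron-retaining nor a decay target: protein-coding transcripts took 51.5% and 50.3%, and the remainder went to transcripts of the class processed transcript, such as Ddx58-205 with 24.6% and 24.4%. Ifi35 gave 29.0% and 33.6% to a decay target, and Herc6 57.7% and 50.1% to retained introns. A short transcript gains more TPM per count than a long one, and total RNA also holds unspliced RNA, so these shares depend on how reads in introns were assigned.

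A second deposited table, made without alignment, kept the leading transcript of 37 of the 44 detected members. The like share over all detected protein-coding genes was not counted, so this count has no background to be read against. The 7 that differed were Ifitm1, Ifi203, Irgm1, Adar, Xaf1, Oasl1 and Ifih1. In Ifitm1 the 3 transcripts encode proteins of the same 106 amino acids, and only the lengths of the transcripts differ. In Ifi203 and Oasl1 a retained-intron transcript led in the second table, and in Xaf1 a decay target. For Samhd1, Oasl2 and Mx1 both tables put the same transcript first by the mean of the libraries, with Samhd1-210 at 37.1% and 29.5% in the second.

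Adar makes a long, interferon-inducible protein, p150, and a shorter constitutive one, p110. The transcript Adar-203, which encodes 1178 amino acids, took 33.3% of the gene's TPM in replicate 1 and 35.9% in replicate 2. Adar-201, which encodes 1152 amino acids and begins at the same base, 89730748 on chromosome 3, took 14.4% and 11.5%. The transcript Adar-202, which encodes the 930-residue form and starts upstream at 89715022, took 3.90% and 0%. The second table gave 16.4% and 20.3% to Adar-203, 42.4% and 38.3% to Adar-201, and 4.36% and 1.24% to Adar-202. Adar-205, which encodes 634 amino acids, took 15.5% and 20.6% in the first table, above Adar-201, but 0% and 1.03% in the second. Retained-intron transcripts took a further 33.0% and 31.9% in the first. The tables thus differed on which long form led, and both put the 930-residue form below the long forms. Adar also overlaps the gene Chrnb2 on the other strand over 16.8% of its exon bases. The ISRE-like letters next to the start of Adar-203 and Adar-201 read as follows.
Adar (chr3:89730741-89730767, plus strand): tcaaggaaacGAAAGTGAActctgggg

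Between the 2 libraries, none of the 45 members past the floors (TPM of 1 or more in one library or the other, and 50 or more expected counts in the larger) differed by 2-fold or more in TPM + 1, where 0.923% of 9097 annotated genes did. At 1.5-fold it was 1 member, Bst2, against 3.17%. The median log2 ratio of replicate 2 to replicate 1 was -0.05 over members and -0.08 over protein-coding genes, and 28 of the 45 members were lower in replicate 2, 62.2%, against 68.6% of protein-coding genes. With the libraries scaled by TMM the members' median was 0.06, and it was 0.02 with TPM expressed per total of nuclear protein-coding genes, so its sign was set by the scaling.

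Among these 45 members, the largest differences upwards in replicate 2 were in Bst2, Dhx58 and Rtp4, with log2 ratios of 0.60, 0.45 and 0.26. Those downwards were in Cmpk2, Mx1 and Samhd1, with -0.46, -0.40 and -0.38. The counts of some of these differed less than their TPM. Dhx58 had 628 and 635 expected counts, a ratio per library total of 1.07 with an exact conditional binomial 95% interval of 0.95 to 1.19, and its protein-coding share went from 82.6% to 47.5%. Mx1 had a count ratio of 1.03 with an interval of 0.88 to 1.21. Cmpk2 had 0.88 with an interval of 0.80 to 0.96.

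In protein-coding transcripts alone, the log2 ratios of Dhx58, Mx1, Cmpk2 and Samhd1 were -0.17, 0.04, -0.12 and -0.07. Rtp4, whose counts were 1123 and 1431, kept 0.26 there and a count ratio of 1.34 with an interval of 1.24 to 1.45. Bst2 rested on 40 and 76 counts, with a ratio of 2.00 and an interval of 1.35 to 3.02. These intervals compare the libraries and cover counting error only, and such an interval excluded 1 for 21 of the 45 members past the floors, 46.7%, against 43.2% of the 9097 annotated genes. It lay above 1 for 11 members, 24.4% against 18.5% of annotated genes, and below 1 for 10, 22.2% against 24.7%. The deposited interval bounds of TPM did not overlap between the libraries for 17 of the 45, 37.8%, against 27.7%. The members had more counts, with a median of 1112.5 expected counts against 763.5 for these annotated genes, and more counts narrow an interval.

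**Figure D4:**
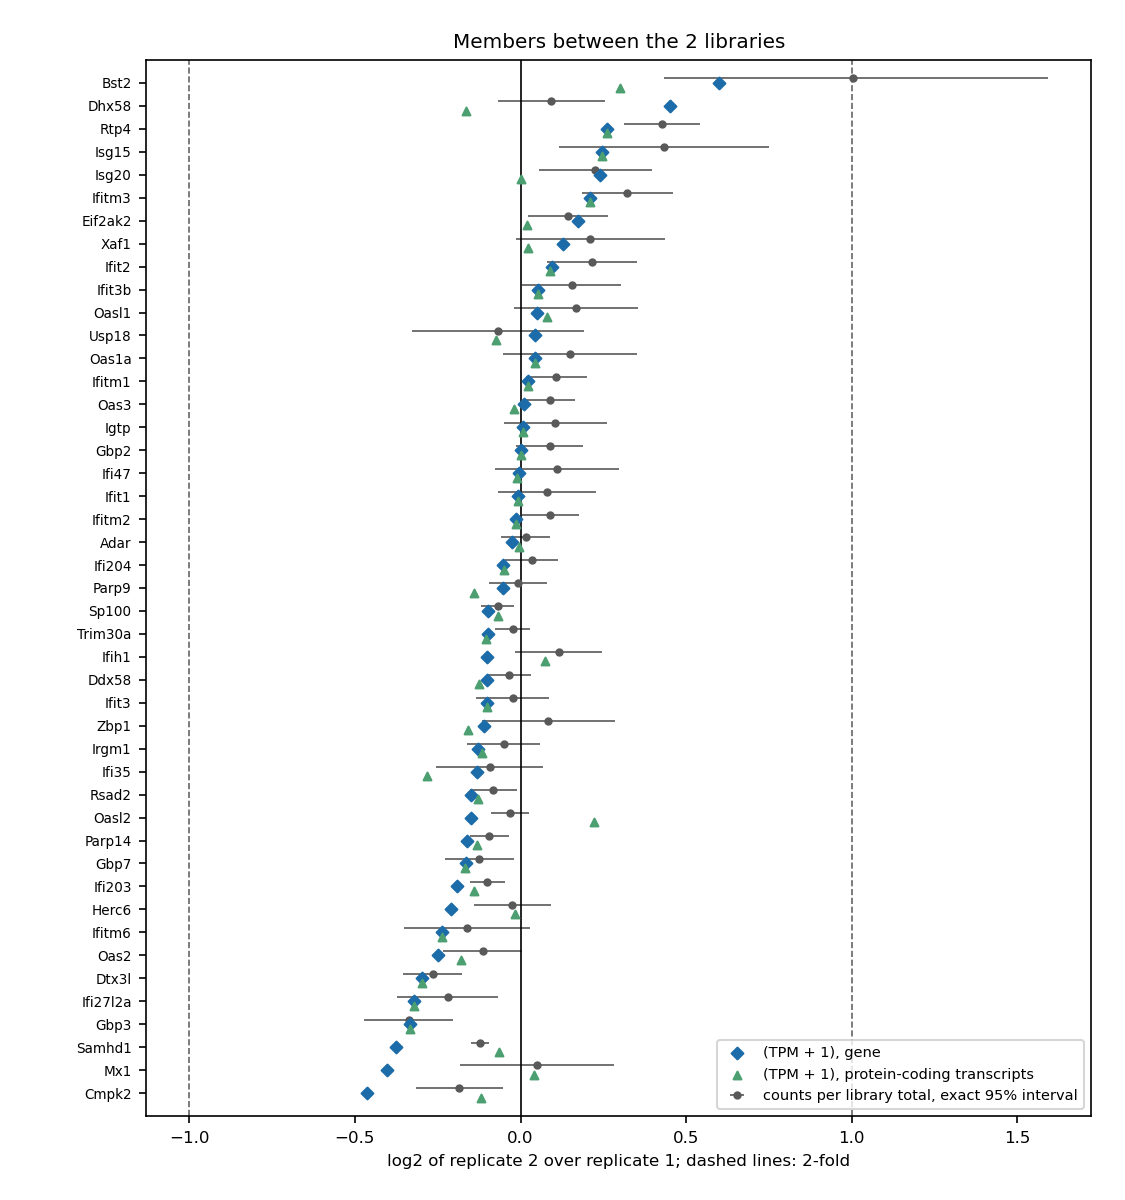
Log2 ratio of replicate 2 to replicate 1 for the 45 members that reached a TPM of 1 in one library or the other: gene TPM + 1 (diamonds), TPM + 1 of protein-coding transcripts (triangles) and counts per library total with exact 95% intervals (circles with bars). All diamonds lie inside the dashed 2-fold lines, and for Dhx58, Mx1, Cmpk2 and Samhd1 the triangle lies nearer 0 than the diamond.

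Transcripts of the interferons themselves were at or near 0. All 17 type I interferon genes (Ifna1, Ifna2, Ifna4, Ifna5, Ifna6, Ifna7, Ifna9, Ifna11, Ifna12, Ifna13, Ifna14, Ifna15, Ifna16, Ifnab, Ifnb1, Ifne and Ifnk) had 0 expected counts in both libraries, as did the type III genes Ifnl2 and Ifnl3. Ifng, the type II interferon of lymphocytes, had 5 and 4 expected counts. The second deposited table, made without alignment, also put the type I genes at 0 in both libraries except Ifna16, with a TPM of 0.51 and 0.34, and Ifnk, with 0.10 and 0. At this depth a count of 0 leaves room for the low limit given above. Genes for their reception were present. Of the 6 receptor chains 5 were detected: Ifngr1 was at 21.8 and 18.4, Ifnar1 at 14.4 and 13.0, and Il10rb at 12.4 and 12.7, while Ifnlr1, the chain particular to type III interferon, was at 0.51 and 0.49.

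The 7 receptor kinases and transcription factors followed were all detected. Irf1, a factor induced by interferon gamma, was at 30.8 and 31.2, Jak1 at 28.2 and 25.3, and Irf9 at 14 and 13.4. Tyk2 was the lowest at 2.61 and 2.64. Of the 5 genes that restrain the pathway, Ptpn6, the phosphatase SHP-1, was at 189 and 158, Socs3 at 21.7 and 21.8, and Pias1 at 7.23 and 6.35. Socs1, the feedback inhibitor of Jak kinases, was the lowest at 0.30 and 0.30. Of 10 genes that lead to interferon production 8 were detected, with Irf3 at 19.8 and 17.6, Irf5 at 13.3 and 14.6 and Tbk1 at 11.5 and 10.9, and with the RNA receptor Tlr3 lowest at 0.03 and 0.08.

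**Figure D5:**
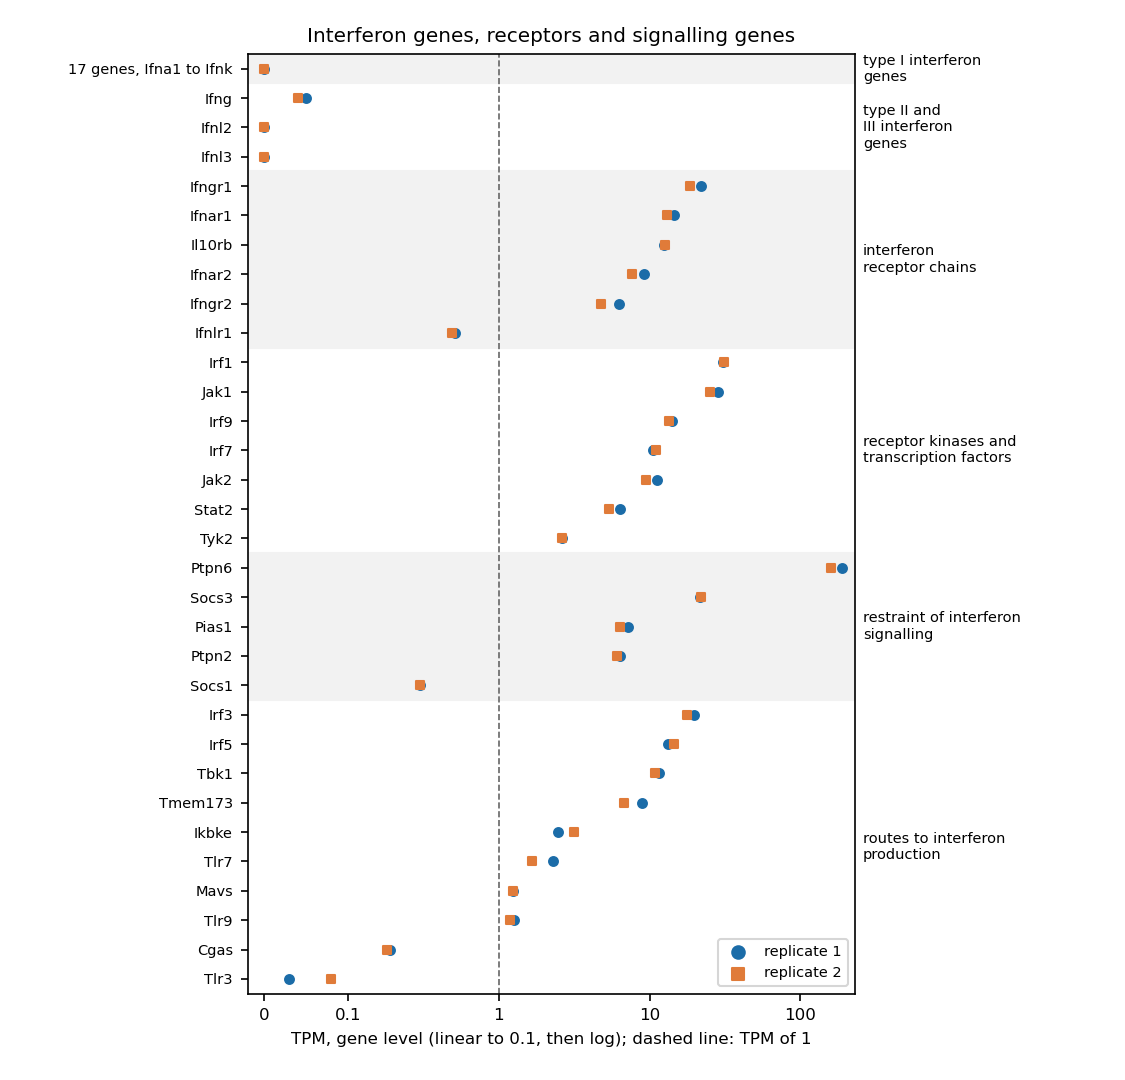
Gene-level TPM (axis linear to 0.1, then logarithmic) of interferon genes, receptor chains and signalling genes in replicate 1 (circles) and replicate 2 (squares); the 17 type I genes share a line because all lie at 0 in this table. The interferon genes sit at or near 0, whereas 5 of 6 receptor chains and all 7 kinases and factors lie right of the dashed line at a TPM of 1.

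Relatives of the 48 genes that were not on the list were detected in 21 of 41 cases, and some were higher than their listed kin. Among other p200 genes, 8 of 11 were detected, and Mndal at 69.2 and 69.1, Ifi209 at 37.4 and 34.5 and Aim2, the sensor that starts an inflammasome, at 18.3 and 16.9 led, with Ifi202b lowest at 0.02 and 0.02. Trim30b, at 34.8 and 31.0, was above Trim30a in both libraries, Trim30d was at 16.6 and 15.7, and Trim30c at 0.57 and 0.59. Of 14 other GTPases 6 were detected, led by Gvin1 at 22.1 and 20.7, Gbp9 at 15.2 and 12.6 and Tgtp2 at 7.93 and 6.24, and Gbp2b had 0 counts in both libraries.

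The other OAS1 paralogs were low: Oas1c was at 0.88 and 1.64, Oas1b at 1.01 and 1.45, and Oas1d, Oas1f and Oas1h had 0 counts. Oas1b is also typed as a polymorphic pseudogene. Of the other IFITM genes, Ifitm5 was at 1.55 and 1.04 and Ifitm10 at 0.07 and 0.07, and Ifitm7 had 0 counts. Of the IFIT relatives, Ifit1bl1, at 3.60 and 3.29, lay within the range of the listed IFIT genes, and Ifit1bl2, at 2.38 and 1.98, lay below Ifit2, the lowest of them, in each library. Ifi27 was at 7.85 and 9.56, below Ifi27l2a in both libraries, and Ifi27l2b had 0 counts.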

How the data were processed

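The authors deposited, per library, gene tables with an expected count and a TPM per gene, a transcript table with IsoPct (the percent of a gene's TPM), and an alignment-free table with an estimated count and TPM per transcript, per the file headers. The authors' gene tables also hold interval bounds on the TPM signal scale, per the file headers. The deposited file list names mm10 and GENCODE M21 or, for a second gene table, M4. For program, version and strand setting: not given in the sources used here.

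Main values came from the M21 gene table. The 48 genes and all lists were chosen with earlier results of these data known. Coordinates and transcript classes came from GENCODE M21 (GRCm38, the assembly that mm10 names) and promoter windows from RefSeq. Detected means a TPM of 1 or more in each library. Logarithms are log2(TPM + 1), with a pseudocount of 1. Between libraries, a difference needed a TPM of 1 in one or the other, 50 expected counts in the larger and a (TPM + 1) fold of 2 or more. For intervals, TMM (edgeR 4.0.16) and size factors (DESeq2 1.42.0, R 4.3.3) expected counts were rounded. With 1 group there was no test. Intervals are exact conditional binomial at 95% (scipy 1.17.1), cover counting error only since PCR copies are not independent molecules, and were tested on simulated data together with the motif search. Python 3.11.15, numpy 2.4.6, pandas 2.3.3 and matplotlib 3.10.9 did the rest.

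All 48 genes could be named, and of each other list the 3 highest by mean TPM, the lowest and those with 0 counts. Between libraries the 3 largest ratios each way were named. Sequences are of at most 3 genes a role group, by mean TPM among those with a match. Of genes with several stretches of one length 1 was printed, by no stated rule. In Ifit3, Ifit3b, Ifitm3 and Trim30a it was not the stretch nearest the start. The nearest read GAAAGGGAA in Ifit3 and Ifit3b and GAAAAGGAA in Ifitm3. Bst2 and Ifi44 were left out, and Samhd1 was added, after their values were seen. Ly6g, Siglech and the transcripts of Ddx58, Ifi35 and Herc6 were also named after their values were seen. Of the listed symbols, Mnda matched no gene. A pair of listed genes is not reported here. Depth was 22646991 and 21471673 expected counts. Alternatives were other thresholds and pseudocounts, the M4 and alignment-free tables, other scalings, each library alone and, chosen after seeing the data, protein-coding transcripts only.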

Additional observations from a re-analysis of the deposited data

How the results depend on the processing

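The count of detected members stayed between 44 and 47 in every alternative except a TPM minimum of 5, which left 23. The single libraries gave 44 and 45. The share of protein-coding genes detected was less steady. It was 34.9% in the main setting, ran from 29.6% (protein-coding transcripts only) to 51.6% (10 expected counts), and was 14.6% at a TPM minimum of 5. The members' median log2(TPM + 1) of 2.51 (mean of the libraries) became 2.26 with a pseudocount of 0.1, 2.83 over detected members only and 3.24 in the alignment-free table. It was 5.80 with TPM expressed per total of nuclear protein-coding genes, 2.32 in protein-coding transcripts only, and 2.47 and 2.55 in the libraries taken singly. The same medians over all protein-coding genes were -2.22, 2.40, 0.50, 1.23 and 0.10. The median library ratio of -0.05 changed sign to 0.065 under TMM, 0.058 under DESeq2 size factors and 0.021 after that rescaling, where protein-coding genes had 0.0048, -0.0018 and -0.026. Members with a 2-fold difference were 0 under TMM, DESeq2 size factors, no count filter and both other tables, and 1 at a fold of 1.5. A protein-coding leading transcript was found in 38 to 42 members over the alternatives that kept all 44, against 75.7% to 83.1% of detected protein-coding genes. It was found in 33 of the 36 members with several transcripts, against 82.9%. Every member's TPM was higher in the alignment-free table, by a median of 1.61 times, and after rescaling. In protein-coding transcripts only, 34 were lower and 13 moved by over 1.5 times. No paired analysis was possible because the libraries form 1 group. With 2 libraries, possibly of one source, no spread between animals could be measured, low genes such as Ifi44 and Bst2 rest on few counts, and the values of near copies depend on how shared reads were split.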
